A study of Mus musculus with 45 samples.

Results

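Cells that had regained EHMT2 were compared with cells that had never been given the degrader, using 3 libraries of Recovery_8d and 3 of DMSO_15d, which are 6 of the 45 libraries of the series. All are bulk poly-A RNA-seq of EHMT2-dTAG-mcherry mouse embryonic stem cells (mESCs) of strain BL6/129. In the mESCs of every group, controls included, both copies of Ehmt2 carry a degron tag with HA tags and an mCherry reporter at their end, so no untagged mESC line is part of the comparison. DMSO_15d cells were kept in DMSO for 15 days. Recovery_8d cells were kept in dTAG-13 for 7 days and then in DMSO for 8 days, so both groups were collected on the same day of culture. A further group of 3 libraries, dTAG_15d, was kept in dTAG-13 for the whole 15 days. It entered the fit for its spread, and its values are given beside the others. The labels name 3 clones (E2-17, E2-20 and E2-K71) in each group, all derived from 1 parental line. The clones grew in FBS/LIF on mouse embryonic fibroblast feeders, so feeder RNA can be part of each library. The question of the comparison is what remains altered once EHMT2 has returned. EHMT2 is removed here as a protein, and no measurement of the protein was analysed here.

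EHMT2, also called G9a, works as a dimer with EHMT1 and places the repressive mark H3K9me2 on histone tails. In mESCs it is known to keep silent the genes of the 2-cell-like state, germ-line genes and families of endogenous retroviruses. dTAG-13 links the tagged protein to a ubiquitin ligase and the proteasome destroys it, and new protein accumulates once the compound is washed out. Silencing of a locus by this route calls for the mark to be laid anew.

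The deposited tables hold the mean of each group, and the value of each library was read back from these means. Libraries within a group carry no clone name and are called a, b and c, from the deepest to the shallowest. In the 9 libraries, 11271114 to 18256250 gene reads each could be read back, from genes that hold 68.1% to 76.7% of the summed gene signal of their group, so the libraries were deeper than this. Among genes that passed the filter, 216 could not be read and were not tested, 76 of them with every group mean under 20000. The largest change among their means was that of Lars2, the mitochondrial leucyl-tRNA synthetase, with authors' means of 6935 in DMSO_15d, 6204 in dTAG_15d and 1992 in Recovery_8d and no replicate check. Values are read counts divided by the authors' size factors (normalised counts), and differences are Recovery_8d minus DMSO_15d on the scale of log2(normalised count + 1), from limma across 17841 tested genes with Benjamini-Hochberg adjustment. This scale understates the change of genes with few reads. The libraries did not separate by group. The first principal component held 66.7% of the variance of the 6 libraries and put DMSO_15d library a (0.42) beside Recovery_8d library b (0.57), away from DMSO_15d libraries b (-0.41) and c (-0.56). Of the counts that could be read, repeats took 2.41% in DMSO_15d library a, 1.28% in b and 1.20% in c. They took 1.41%, 2.43% and 1.86% in Recovery_8d libraries a, b and c. These are not whole repeat shares, since families with 40.9% to 61.1% of the repeat signal of a group could be read. DMSO_15d library a was also low in short genes, with a median log2 deviation from the 9 libraries of -0.23 in the shortest of 5 length classes and 0.23 in the longest. DMSO_15d library c was raised over chromosome 1 (median log2 deviation 0.19, against -0.09 to 0.04 in the other 8 libraries). The part of these traits in the results below was not tested beyond leaving out each library in turn. The mESC markers (Sox2, Nanog, Esrrb, Zfp42, Klf4 and Tfcp2l1 tested, Pou5f1 only as a mean) had a median difference of 0, and the lineage markers a median of 0.18. The Ehmt2 transcript (chr17:34898469-34914052) had 556, 756 and 761 normalised counts in DMSO_15d and 582, 478 and 579 in Recovery_8d. The groups overlapped, and the difference of -0.33 (SE 0.16) did not pass limma (adjusted p = 0.633). Since the degrader acts on protein, this transcript does not check the labels.

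Very little passed the test after washout. limma called 0 of 17841 genes (0% in each direction) at an adjusted p under 0.05 and a difference of at least 1, and 1 repeat family, the retroviral LTR IAPLTR2a, which was higher (0.149% of 671 tested families). At an unadjusted p under 0.05, limma had 1431 genes, 689 of them higher and 742 lower. The smallest adjusted p of a gene was 0.0653, and 15 genes had one under 0.1. edgeR on the same reads called 0 genes, with 1367 at an unadjusted p under 0.05. DESeq2 called 99 of 16110 genes, 30 higher (0.186%) and 69 lower (0.428%), with 1240 at an unadjusted p under 0.05. In limma those 30 genes had adjusted p-values of 0.0864 to 0.487, and the 69 had 0.0653 to 0.344. Since bulk RNA was measured, a smaller number of cells of a type and less RNA per cell cannot be told apart in any of these results. The median difference over all genes was -0.000861.

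The number of calls hung on single libraries. Without DMSO_15d library a, limma called 153 genes (96 higher, 0.538%, and 57 lower, 0.319%), of which 61 were among the 99 of DESeq2, and DESeq2 called 757. Without Recovery_8d library a, limma called 20. DESeq2 called 29 genes without DMSO_15d library b, 68 without library c, 123 without Recovery_8d library a, 45 without b and 31 without c. Of the 99 genes, 26 were called by DESeq2 in the full fit and in all 6 fits with a library of DMSO_15d or Recovery_8d left out. These 26 genes, 7 higher and 19 lower, are described first, and they were chosen after their values had been seen. The higher genes are the X-linked Xlr5a, Xlr5b and Efhc2, the Y-linked Ddx3y, and Fos, Fosb and Jun. Of the 19 lower genes, 7 are in the feeder fibroblast list used below. In all 26, the 3 Recovery_8d libraries lay all above or all below the 3 DMSO_15d libraries. The choice of these genes from the same values favours such a separation, so it is no further support for them. Over all tested genes, which were not chosen in this way, 5.5% had all 3 Recovery_8d libraries above all 3 controls and 6.51% had them below.

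**Figure D1:**
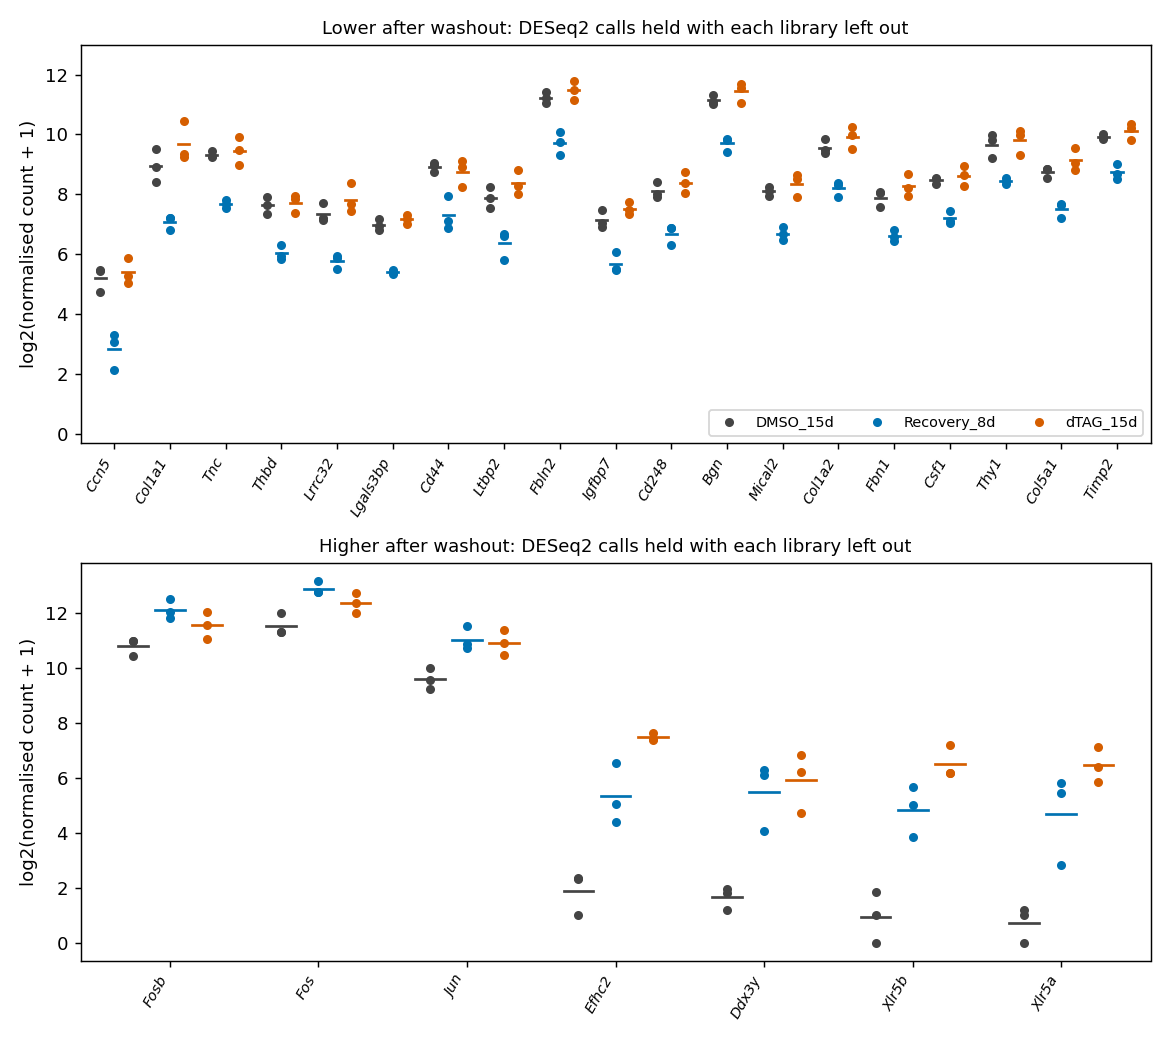
Each point is the log2(normalised count + 1) of 1 library and each bar the mean of the 3 libraries of a group, for the 19 lower genes (upper panel) and the 7 higher genes (lower panel) that DESeq2 called in all 7 fits. In the upper panel the blue Recovery_8d points lie below the grey DMSO_15d points for each gene. In the lower panel Efhc2, Ddx3y, Xlr5b and Xlr5a go from almost no reads in DMSO_15d to between 6.2 and 92.9 normalised counts in Recovery_8d.

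The Xlr5 genes belong to the X-linked lymphocyte-regulated family, multi-copy genes of the X chromosome that are expressed mostly in germ cells and lymphocytes, and several of which are imprinted in mice. Xlr5a (ENSMUSG00000058328, annotated at chrX:73107635-73292976, minus strand) and Xlr5b (ENSMUSG00000072479, chrX:73148796-73158872, plus strand) are near-copies. Their promoters are shown because they are largely the same sequence. The windows are from RefSeq on GRCm38.p6, 250 bases before to 50 after the start, 5′ to 3′ on the strand of the gene (chrX:73117653-73117952, minus strand, and chrX:73148591-73148890, plus strand). The RefSeq starts differ from the starts of the annotated spans given above, most of all for Xlr5a. Capitals mark the longest stretch that both windows hold, 255 of 300 bases, which is displaced by some bases between them.
Xlr5a: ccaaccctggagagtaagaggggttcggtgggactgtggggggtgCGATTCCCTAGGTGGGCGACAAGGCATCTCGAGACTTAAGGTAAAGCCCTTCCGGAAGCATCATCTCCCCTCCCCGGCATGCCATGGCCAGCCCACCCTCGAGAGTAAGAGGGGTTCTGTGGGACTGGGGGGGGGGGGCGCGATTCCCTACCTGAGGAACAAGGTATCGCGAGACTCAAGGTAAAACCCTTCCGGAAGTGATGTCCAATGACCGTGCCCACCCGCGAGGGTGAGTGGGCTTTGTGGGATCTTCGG
Xlr5b: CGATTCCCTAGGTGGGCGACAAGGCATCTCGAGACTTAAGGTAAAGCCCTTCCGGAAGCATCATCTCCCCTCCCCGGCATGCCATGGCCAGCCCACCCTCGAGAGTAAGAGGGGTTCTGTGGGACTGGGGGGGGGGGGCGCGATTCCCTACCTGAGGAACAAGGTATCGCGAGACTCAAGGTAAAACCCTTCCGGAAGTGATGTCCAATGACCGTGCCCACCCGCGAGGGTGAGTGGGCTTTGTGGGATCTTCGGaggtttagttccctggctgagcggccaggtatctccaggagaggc

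Xlr5a had 0, 1.0 and 1.3 normalised counts in DMSO_15d libraries a, b and c, and 6.2, 42.7 and 55.1 in Recovery_8d. Xlr5b had 0, 1.0 and 2.6 in DMSO_15d, and 13.3, 31.6 and 50.6 in Recovery_8d. The groups did not overlap for either gene, and Recovery_8d library a was the lowest of the recovered libraries for both. With dTAG-13 for all 15 days the values were 140, 57.0 and 84.7 for Xlr5a and 146, 71.5 and 71 for Xlr5b, against the same controls. The difference was 3.97 (SE 0.71, limma adjusted p = 0.127) for Xlr5a and 3.90 (SE 0.57, limma adjusted p = 0.0864) for Xlr5b, and the DESeq2 adjusted p was 0.00086 and 0.000266. Over the 7 DESeq2 fits the largest adjusted p was 0.0391 for Xlr5a and 0.0176 for Xlr5b. All 3 control libraries held only 2 reads of Xlr5a and 3 of Xlr5b, against 102 and 94 in Recovery_8d. The ratio of reads per depth was 48.8 for Xlr5a (95% exact interval 13.2 to 409) and 30.0 for Xlr5b (9.96 to 148), intervals that cover counting error only. Fitted differences of genes with so few control reads depend on the added count.

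The same stretch of the X chromosome holds the other Xlr genes, and most of them were higher after washout, though few passed any test. Xlr5c had 0.8, 0 and 0 normalised counts in DMSO_15d and 4.4, 19.5 and 20.2 in Recovery_8d (DESeq2 adjusted p = 0.00836, limma 0.0981). Gm14685 and DXBay18, near-copies of each other, went from 1.7, 1.0 and 1.3 to 7.1, 15.8 and 24.7 and from 0.8, 0 and 2.6 to 6.2, 13.9 and 22.5, with DESeq2 adjusted p-values of 0.0142 and 0.0285. None of these had overlapping groups, and all 5 are expressed in dTAG_15d at 26.1 normalised counts or more in each library. Xlr3a had 1.7, 9.8 and 287 normalised counts in DMSO_15d and 132, 712 and 457 in Recovery_8d. DMSO_15d library c alone was high and overlapped the recovered libraries, and the difference of 4.12 (SE 1.32) had a limma adjusted p of 0.49 and a DESeq2 adjusted p of 0.808. Xlr3b (3.4, 15.6 and 114 against 75.5, 410 and 258) and Xlr3c (0.8, 2.9 and 29.1 against 23.1, 159 and 52.9) had the same order of control libraries. Xlr4a was at 0, 0 and 17.2 in DMSO_15d and 6.2, 33.4 and 27.0 in Recovery_8d. F8a, which lies among these genes and codes for a huntingtin-associated protein, had 50, 59.6 and 56.8 in DMSO_15d and 58.6, 53 and 41.6 in Recovery_8d, a difference of -0.13. Of the 10 Xlr genes listed, 9 were tested, with a median difference of 3.31. The Xlr5 genes passed the filter only through groups where they were high, which favours a positive difference. DESeq2 called 3 of the 9 higher, against 0.186% over all genes, and limma and edgeR called 0. The annotation of Xlr5a spans Xlr5b and ends at the same base as Xlr5c. Of the 100-base words of its transcripts, 69.1% also occur in another gene, and the share is 81.3% for Xlr5b, 66.7% for Xlr5c, 96.2% for Gm14685 and 92.8% for DXBay18. The aligner kept 1 random position for each multi-mapping read, so the level of any copy taken alone is uncertain.

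**Figure D2:**
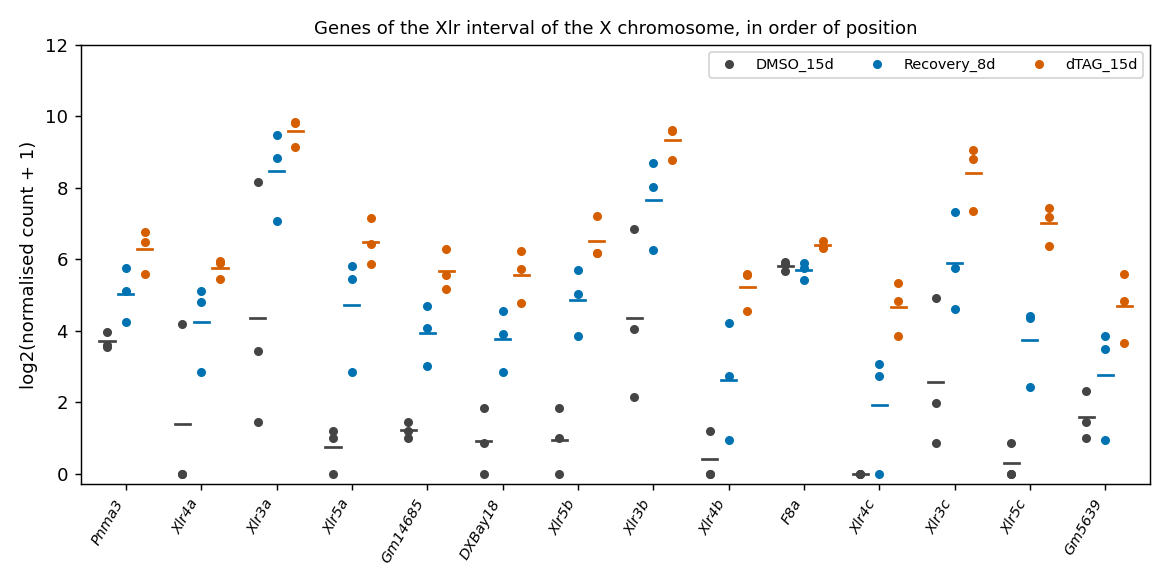
Genes of the Xlr stretch of the X chromosome in order of position, with the log2(normalised count + 1) of each library as a point and the mean of each group as a bar. Recovery_8d lies between DMSO_15d and dTAG_15d for 13 of the 14 genes by group mean, F8a being the exception, and a lone DMSO_15d point, library c, stands high for Xlr4a, Xlr3a, Xlr3b and Xlr3c.

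Efhc2 (ENSMUSG00000025038, chrX:17132049-17319368, minus strand), which codes for an EF-hand protein of cilia, lies far from the Xlr genes on the same chromosome. It had 4.2, 1.0 and 4.0 normalised counts in DMSO_15d and 20.4, 92.9 and 32.6 in Recovery_8d. The groups were apart, with Recovery_8d library b the highest. The difference was 3.45 (SE 0.53, limma adjusted p = 0.0864) and the DESeq2 adjusted p was 5.47e-06, at most 0.00131 over the 7 fits. The ratio of reads was 16.2 (95% exact interval 8.30 to 36.1). None of its 100-base words occurs in a transcript of another annotated gene. Near matches and sequence outside annotated transcripts were not searched, so misplaced reads are not excluded. In dTAG_15d it had 168, 170 and 197 normalised counts, so the recovered libraries were below all of these and above all controls. Its means in the 7 d experiment, which has its own libraries, were 2.4 in DMSO and 77.2 in dTAG-13. By chromosome, 6 of the 30 genes that DESeq2 called higher lie on the X, which holds 3.90% of the tested genes. Of these, 5 are the copies in the Xlr stretch that share reads, so they are not separate observations. The median difference of all tested X genes was 0.08.

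A further 2 DESeq2 calls lie on the Y chromosome, where 7 genes were tested, with a median difference of 0.35. DMSO_15d was almost empty of reads for the 2 genes called. Ddx3y (ENSMUSG00000069045), an RNA helicase, had 2.5, 2.9 and 1.3 normalised counts in DMSO_15d and 16.0, 77.1 and 68.6 in Recovery_8d. Uty (ENSMUSG00000068457), a histone demethylase homologue, had 5.1, 3.9 and 6.6 against 22.2, 35.3 and 67.5. Groups did not overlap for either, and the DESeq2 adjusted p was 2.71e-05 and 0.000509 (limma 0.108 and 0.12). In dTAG_15d Ddx3y had 113, 73.4 and 25.2 normalised counts and Uty 106, 63.8 and 35.5. Both passed the filter only through groups where they were high, which favours a positive difference. The other 6 Y-linked genes listed did not pass the filter. Of these, Eif2s3y had 0, 0 and 4.0 in DMSO_15d and 6.2, 14.9 and 6.7 in Recovery_8d, Kdm5d was between 0 and 2.2 in all 6 libraries, and Usp9y, Zfy1 and Zfy2 were at 0 in all 9. Whether cells of different karyotype were mixed in the libraries was not tested.

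The genes that respond to loss of EHMT2 were followed through washout with a list made from the 7 d experiment, which shares no library with this comparison. It holds 204 genes that were at least 4-fold higher in the authors' mean of dTAG_7d than in that of DMSO_7d, with a mean of at least 50 in dTAG_7d, and 203 of them were tested. Their median log2 ratio at 7 d was 4.05. For dTAG_15d over DMSO_15d the median log2 ratio of group means, each plus 1, was 4.46. For Recovery_8d, against the same controls, the median limma difference was 0.51, a mean of library log2 values and so not quite the same measure. With a list of 450 genes raised at least 2-fold at 7 d the median after washout was 0.15, with 801 genes of sorted 2-cell-like cells it was 0.20, and with 88 genes raised at 24 h it was 0.55. For 167 of the 203 genes the recovered mean of log2 values was within 2-fold of the control, 32 were at least 2-fold higher and 4 at least 2-fold lower. Over all tested genes 2.16% were at least 2-fold higher and 1.26% lower. A gene could pass the filter through its dTAG_15d mean alone. Samd7, for example, had means of 1.6 in DMSO_15d, 2.3 in Recovery_8d and 96.6 in dTAG_15d. At so few reads the added count keeps differences small, so the 167 do not by themselves show a return to control. limma called 0 of the 203 genes, and DESeq2 called 2 higher, Efhc2 and Gm10424, and 3 lower, among them Cd44 and Ccn4. All 3 recovered libraries were above all 3 controls for 21 of the 203 genes and below them for 6. Over all tested genes these shares were 5.5% and 6.51%. The list holds families of similar gene copies, such as Zscan4, so its genes may not all be separate observations. The summed level of the list was 6333, 8835 and 8230 normalised counts in DMSO_15d, 6712, 12661 and 8378 in Recovery_8d, and 64139, 99337 and 113940 in dTAG_15d. The recovered libraries overlapped the controls in this sum and library b alone was above them. Library b had the highest value of the 3 recovered libraries in 156 of the 204 genes, and the median difference of the list was 0.23 without it and 0.83 without library a.

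**Figure D3:**
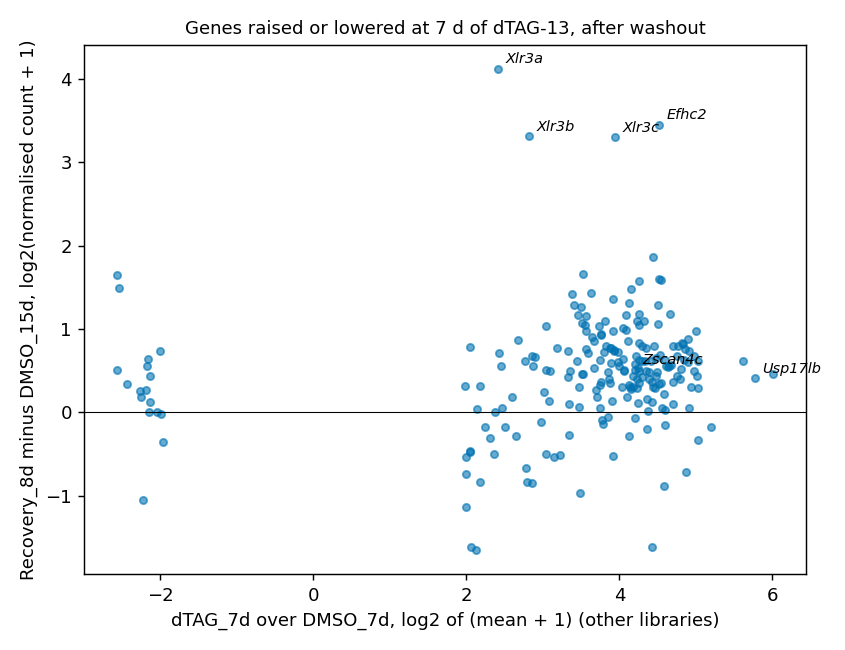
Each point is a gene raised or lowered at least 4-fold at 7 d, with the log2 ratio of the 7 d group means, each plus 1, on the x axis and the limma difference Recovery_8d minus DMSO_15d on the y axis. Most raised genes lie near 0 to 1 on the y axis, with a median of 0.51, while Efhc2, Xlr3a, Xlr3b and Xlr3c stand above 3.

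The 8 genes of this list with the highest remaining difference were Xlr3a, Efhc2, Xlr3b, Xlr3c, Gm8701, Gm47404, Gm49015 and Gm10424. Gm10424 (chr5:95268493-95272768), a predicted protein-coding gene, had 5.1, 4.9 and 6.6 normalised counts in DMSO_15d, 10.7, 26.0 and 22.5 in Recovery_8d and 191, 247 and 295 in dTAG_15d. Its groups did not overlap, and it had a difference of 1.59 (SE 0.34, DESeq2 adjusted p = 0.0315, limma 0.2). The 4 genes nearest 0 were Samd9l, Gm2022, Gm6489 and Arhgef26. Gm6489 had 5.9, 8.8 and 6.6 in DMSO_15d, 2.7, 13.9 and 9.0 in Recovery_8d and 146, 187 and 362 in dTAG_15d. At the other end, 17 genes that were at least 4-fold lower at 7 d had a median of 0.27 after washout, with 14 of them within 2-fold and 0 called by limma, edgeR or DESeq2.

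The 2-cell-like programme is made of the transcripts of zygotic genome activation that rare mESCs express. Of 29 tested genes, 0 were called by limma, edgeR or DESeq2, the median difference was 0.51, and 28 had a positive difference. Over all 17841 tested genes, 8887 had a positive difference. The list holds families of similar copies, such as Zscan4, and a read with many places was put at a random one. How many reads these copies share was not measured, so the members may not be separate observations. The median was 0.09 without Recovery_8d library b and 0.80 without library a. All 3 recovered libraries were above all 3 controls for 1 gene, Usp17le, a deubiquitinase (65.2, 75.2 and 47.6 in DMSO_15d against 107, 131 and 82.1). The summed level of the list was 990, 1474 and 915 normalised counts in DMSO_15d and 1021, 2824 and 1432 in Recovery_8d. Library b of the recovered group stood above the controls and the other recovered libraries lay within them. In dTAG_15d the sums were 16839, 31050 and 38323. Zscan4c, a telomere regulator and marker of the state, had 125, 232 and 128 in DMSO_15d, 129, 396 and 213 in Recovery_8d, and 1694, 3764 and 4280 in dTAG_15d. Its difference of 0.51 (SE 0.44) had a limma adjusted p of 0.728. The 9 Zscan4 copies had a median of 0.51 and the 20 tested Obox genes, homeobox factors of the early embryo, had a median of 0.48. Without Recovery_8d library b these medians were 0.07 and 0.29, and without Recovery_8d library a they were 0.90 and 0.88.

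Of the 69 genes that DESeq2 called lower, 13 belong to the feeder fibroblast list. Col1a1, a chain of type I collagen, had 738, 485 and 337 normalised counts in DMSO_15d and 147, 111 and 148 in Recovery_8d. Tnc, the matrix glycoprotein tenascin C, had 614, 704 and 612 against 224, 186 and 205, and Bgn, the proteoglycan biglycan, had 2074, 2548 and 2170 against 909, 688 and 913. In each case the recovered libraries were close to each other and well below all controls. The difference was -1.87 (SE 0.34) for Col1a1, -1.65 (SE 0.21) for Tnc and -1.44 (SE 0.18) for Bgn. Their limma adjusted p-values were 0.136, 0.0653 and 0.0653, and those of DESeq2 were 5.38e-05, 6.07e-08 and 6.07e-08, at most 0.00316, 0.000202 and 0.000202 over the 7 fits. The galectin-binding Lgals3bp, the thrombin receptor Thbd and the growth factor Csf1 were also among the 19, at 122, 143 and 110 against 39.1, 43.7 and 41.6, at 162, 200 and 242 against 78.1, 56.7 and 60.7, and at 372, 322 and 364 against 174, 130 and 136. In dTAG_15d, against the same controls, Col1a1 stood at 651, 602 and 1404 normalised counts, Tnc at 499, 712 and 973 and Bgn at 2120, 3029 and 3302, and the recovered libraries were below all of these.

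The list of feeder fibroblast genes was chosen with earlier results of these data known, so it describes the lower level and is no separate evidence for it. All 29 tested members had a negative difference, with a median of -1.10. DESeq2 called 13 of them lower and 0 higher, and limma and edgeR called 0. For 17 all 3 recovered libraries were below all 3 controls. Over all genes, DESeq2 called 0.428% lower and 6.51% had all 3 recovered libraries below all 3 controls. The summed level was 24518 to 25539 in DMSO_15d, 13300 to 14752 in Recovery_8d and 24270 to 37742 in dTAG_15d. The shorter set of feeder markers, of which 8 of 10 were tested, had sums of 8115 to 11666, 4497 to 5269 and 9134 to 16252, and a median of -1.18. Of its defining markers, Lum was between 0 and 2.6 normalised counts and Dcn between 3.4 and 9.3 in all 6 libraries. Members that were not called include Mmp2, a matrix metalloprotease (468, 444 and 348 against 444, 393 and 379, a difference of -0.04). Among 32 collagens tested, DESeq2 called 7 lower, and 9 had a positive difference and 23 a negative one. Whether the lower level came from fewer feeder cells in the recovered cultures or from the mESCs was not tested. Interferon-stimulated genes answer viral and inflammatory signals. Of 21 tested, DESeq2 called 5 lower (Ifit3, Ifit3b, Rtp4, Isg15 and Xaf1), against 0.428% over all genes, and limma and edgeR called 0. The median was -0.59, which was -1.04 without DMSO_15d library a and -0.40 without library c. The summed level of these 21 genes was 4425 to 5644 in DMSO_15d, 3839 to 4184 in Recovery_8d and 3968 to 4313 in dTAG_15d. In this sum the dTAG_15d libraries were below all controls as well. Ifit3 had 28.8, 120 and 80.6 in DMSO_15d and 16.9, 16.7 and 14.6 in Recovery_8d, and Isg15, a ubiquitin-like modifier, had 61.0, 168 and 136 against 52.4, 42.7 and 36.0. The groups did not overlap for either gene, and the recovered libraries were again the more alike.

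**Figure D4:**
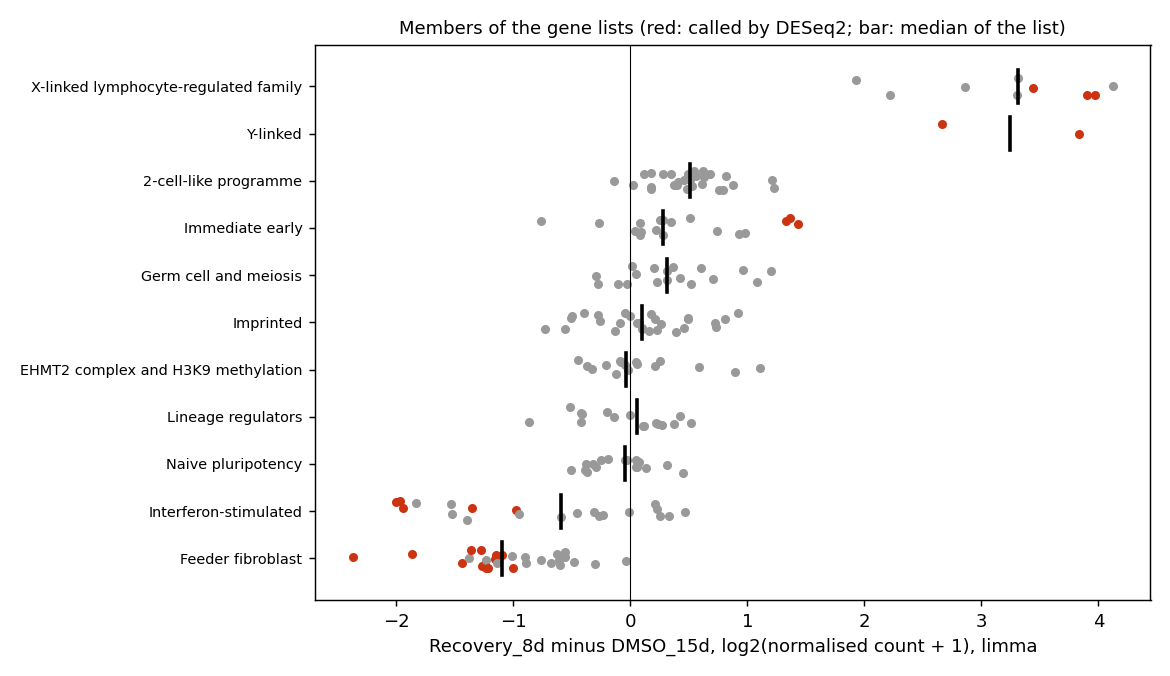
Each point is a gene of a list, placed by its limma difference Recovery_8d minus DMSO_15d, red where DESeq2 called it, and each bar is the median of the list. Only tested genes are drawn, which are 2 of the 8 Y-linked genes. The tested feeder fibroblast genes lie below 0 and the tested Xlr and Y-linked genes above it. The Y-linked and Xlr5 genes drawn are near 0 counts in DMSO_15d and passed the filter through the other groups, which favours a positive difference. The lists of pluripotency, lineage regulators and H3K9 methylation are centred near 0.

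Of 18 immediate early genes, which growth factors and stress switch on within minutes, DESeq2 called 3 higher, against 0.186% over all genes. Fos had 2538, 2558 and 4090 normalised counts in DMSO_15d and 6942, 9282 and 6955 in Recovery_8d. Jun had 754, 608 and 1039 against 1697, 2940 and 1869, and Fosb had 2040, 1400 and 2032 against 3645, 5862 and 4286. Their products pair to form the transcription factor AP-1, and no recovered library fell within the controls. The difference was 1.36 (SE 0.23) for Fos, 1.43 (SE 0.28) for Jun and 1.33 (SE 0.26) for Fosb, with DESeq2 adjusted p-values of 9.7e-05, 0.000675 and 0.000668 and limma adjusted p-values of 0.108, 0.143 and 0.143. In dTAG_15d Fos had 5282, 4176 and 6838 and Jun 1938, 1417 and 2722, above all 3 controls in each library. The list as a whole had a median of 0.28. Klf6, a zinc-finger factor, was higher by less than 2-fold (4431, 3398 and 3821 against 7329, 9288 and 5890, a difference of 0.93, DESeq2 adjusted p = 0.000704), and Junb (1340, 1971 and 2460 against 2198, 1997 and 1778) and Ier2 (3848, 4828 and 4903 against 5121, 4157 and 5015) overlapped.

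Other genes that DESeq2 called higher were not called in all 7 fits. They include genes known from hypoxia and glycolysis, a grouping made after the values were seen. Bnip3, a mitophagy receptor, had 1831, 1078 and 804 in DMSO_15d and 2199, 3888 and 4411 in Recovery_8d (difference 1.52, SE 0.31, DESeq2 adjusted p = 0.00109, limma 0.175). Egln3, a prolyl hydroxylase of the hypoxia factor HIF, had 1360, 655 and 788 against 1430, 3363 and 3270, and Ddit4, an inhibitor of mTOR, had 1725, 1269 and 1059 against 2322, 2729 and 3972. The groups did not overlap for Bnip3, Egln3 or Ddit4, and library a was the lowest of the recovered libraries and the highest of the controls for all 3. Ndrg1 overlapped, at 303, 98.7 and 100 against 226, 641 and 658. Pgm1 and Aldoc, enzymes of sugar metabolism, were also called (DESeq2 adjusted p = 0.00885 and 0.0364). Bnip3 shares 6.9% of its 100-base words with Gm16439 and Gm6532, which were called with it. The mitochondrial mt-Rnr1 (6398, 5859 and 4203 against 9935, 12825 and 10526) and mt-Nd6 (618, 445 and 330 against 558, 2042 and 1530) were called too. Otx2, a homeobox factor of the primed epiblast, had 105, 117 and 177 against 288, 295 and 280, the recovered libraries being nearly equal (difference 1.14, SE 0.26, DESeq2 adjusted p = 0.0164, limma 0.224).

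Of 16 tested genes of the formative and primed epiblast, DESeq2 called 1 higher, Otx2, against 0.186% over all genes, and the median difference was -0.05. The 17 tested genes of naive pluripotency had a median difference of -0.05 and a range of -0.51 to 0.45, and the 16 lineage regulators a median of 0.05 and a range of -0.87 to 0.52. The 16 tested genes of the EHMT2 complex and H3K9 methylation had a median of -0.04 and a range of -0.45 to 1.11. Within it Ehmt1, the partner of EHMT2, had 1692, 1812 and 1614 in DMSO_15d and 1746, 1570 and 1642 in Recovery_8d, and Setdb1, the H3K9me3 enzyme of retroviruses, 2264, 2002 and 2108 against 2078, 1883 and 1921. Imprinted genes had a median of 0.10 over 28 tested and p53 targets a median of -0.09 over 12. DESeq2, edgeR and limma called 0 genes in each of the lists of naive pluripotency, lineage regulators, H3K9 methylation, imprinted genes and p53 targets.

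Among repeats, IAPLTR2a was the 1 family called. It is the long terminal repeat of intracisternal A particles, endogenous retroviruses that H3K9 methylation and DNA methylation hold silent in mESCs. It had 20.3, 22.5 and 7.9 normalised counts in DMSO_15d and 54.2, 75.3 and 90.0 in Recovery_8d, and every recovered library exceeded every control. In dTAG_15d it had 113, 148 and 110, above the recovered libraries as well. The difference was 2.14 (SE 0.41, limma adjusted p = 0.0218), and edgeR and DESeq2 called it too (adjusted p = 0.0492 and 0.000603). The limma adjusted p ran from 6.55e-05 without DMSO_15d library a to 0.331 without Recovery_8d library c, and was 0.184 without DMSO_15d library c and 0.0737 without dTAG_15d library b, so that the call was lost in the last 3 of these fits. Of 20 IAP families tested, IAPLTR2a was the 1 called, and the median difference was 0.41. IAPLTR4 had the next highest difference, at 1.7, 0 and 0 normalised counts in DMSO_15d against 1.8, 5.6 and 2.2 in Recovery_8d, levels of a few reads (limma adjusted p = 0.812). IAPEz-int, the body of the most abundant IAP, had 14099, 10110 and 11210 against 10879, 13031 and 11899, and the groups overlapped.

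MERVL-int, the body of the retrovirus that marks the 2-cell-like state, had 6820, 6080 and 3950 normalised counts in DMSO_15d and 6036, 17354 and 9658 in Recovery_8d. Its LTR MT2_Mm had 832, 837 and 559 against 776, 1965 and 1177. Recovered library a lay within the controls in both cases, and libraries b and c above them. The difference for MERVL-int was 0.88 (limma adjusted p = 0.812). With dTAG-13 throughout, MT2_Mm had 12516, 20576 and 17797. The authors' mean of MERVL-int in dTAG_15d was 147295. Over all 671 families the median difference was 0.31 and became 0.65 without DMSO_15d library a, when 73 families (10.9%) were called higher. It was 0.105 without DMSO_15d library c, 0.117 without Recovery_8d library b, 0.174 without DMSO_15d library b and 0.52 without Recovery_8d library a. All 3 recovered libraries were above all 3 controls in 12 families (1.79%) and below in 5 (0.745%). MMVL30-int, a retrovirus-like element, was among the lower ones, at 2290, 2006 and 1784 against 1374, 1331 and 1210 (difference -0.63, limma adjusted p = 0.812). Young LINE-1 families had a median of 0.47 over 6 and B-type and other SINEs a median of 0.29 over 26, with 0 called by limma, edgeR or DESeq2. In all, 10 families that passed the filter could not be read, and the most abundant SINEs are among them. The authors' mean of B2_Mm1a was 73495 in DMSO_15d and 50121 in Recovery_8d, that of B2_Mm1t was 49331 and 33878, and that of B3 was 14667 and 17134, with no replicate check.

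**Figure D5:**
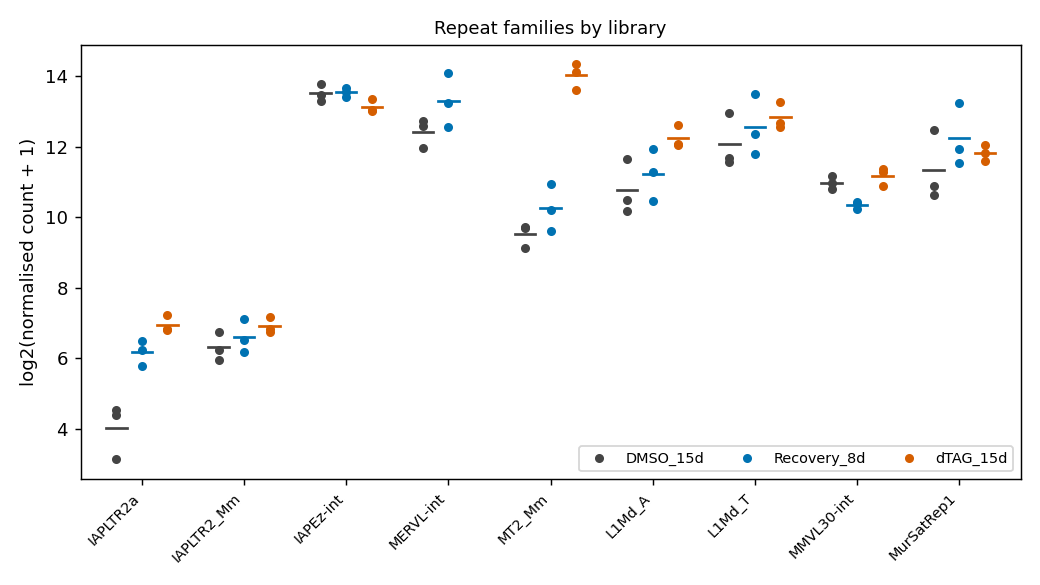
Log2(normalised count + 1) of 9 repeat families in each library, with the mean of each group as a bar. IAPLTR2a shows 3 groups apart, with Recovery_8d between DMSO_15d and dTAG_15d, while the recovered points of MERVL-int, L1Md_A and L1Md_T overlap the controls. The dTAG_15d libraries of MERVL-int could not be read and are not drawn.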

How the data were processed

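Poly-A RNA of the 9 libraries was sequenced as stranded pairs of 100 bases. Per the labels and the study's methods, the authors trimmed reads with Trim Galore 0.6.7, aligned them to mm10 with STAR 2.7.10, putting a read with many places at a random one, counted genes and repeat families with TEcounts, and divided counts by DESeq2 1.34.0 size factors. The strand setting is not given in the sources used here. The deposited signal values are the authors' group means of these normalised counts. The tables of the authors' own comparisons (mean level, fold change, error, p-values and class) were not used.

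A group mean is a sum of 3 whole read counts, each divided by its size factor, so the count of each library was read back from it in Python 3.11.15. In a table of the series with deposited library values, 98.7% of 98878 values could be read and 100% of those matched. Features with a mean over 20000 in a group, and some below it, most of them over 10000 in DMSO_15d, could not be read. The genes read were 99.24% to 99.65% of those with a value and held 68.1% to 76.7% of the summed gene signal, and the repeat families read held 40.9% to 61.1% of the repeat signal. Libraries carry no clone name. No 2 libraries of DMSO_15d, and no 2 of Recovery_8d, agreed within sampling noise. Other pairs were not checked.

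limma 3.58.1 (R 4.3.3) was fitted with a trend to log2(normalised count + 1) of DMSO_15d, dTAG_15d and Recovery_8d, over features with a mean of at least 10 in a group, genes and repeats apart, with Benjamini-Hochberg adjustment. A call needs an adjusted p under 0.05 and an absolute difference of at least 1. edgeR 4.0.16 (quasi-likelihood), DESeq2 1.42.0, a length and GC correction and the fits with a library left out of DESeq2 were added after seeing the data. The code was tested on simulated data. Intervals of read ratios are exact at 95%. The members and gene lists were chosen with earlier results of these data known. Genes to name were to be the 12 highest and 12 lowest called by limma, members of the lists, the 8 highest and 8 lowest called repeats, and, of the genes raised at 7 d, the 8 highest and the 4 nearest 0. As limma called no gene, the DESeq2 genes were named after their values were seen. The labels give separate clones within a group, so p-values measure the spread between libraries of different clones, in which clone and library differences are mixed. The same clones recur in each group, and the fit does not pair them. GENCODE vM21 gave positions for 55141 of 55401 genes.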

Additional observations from a re-analysis of the deposited data

How the results depend on the processing

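limma called 0 genes with a pseudocount of 0.5 or 5, a mean of at least 50, libraries scaled to the same total, centring on the median difference, 6 libraries only, a length and GC correction or a threshold of 1.5-fold, and 3 with no filter on low values. DESeq2 on the same reads called 99. Leaving out each library in turn gave 0 to 153 genes with limma (153 without DMSO_15d library a, 20 without Recovery_8d library a) and 29 to 757 with DESeq2. DESeq2 was refitted only without libraries of DMSO_15d and Recovery_8d, so its 26 held calls were not checked without a dTAG_15d library. For repeat families, leaving out a library gave 0 to 73 with limma and 0 to 79 with DESeq2, the highest both without DMSO_15d library a. limma called 0 families in the fit of 6 libraries only. The call of IAPLTR2a was lost there and without DMSO_15d library c, dTAG_15d library b or Recovery_8d library c, with its direction the same. Of 36 gene and repeat lists, 11 had a median difference of at least 0.5 in size, and 6 to 16 with each library left out (6 without DMSO_15d library c or Recovery_8d library b, 16 without DMSO_15d library a). The medians of the lists made from 7 d moved by less than the spread between libraries in all alternatives run. The causes were not tested. No paired analysis was possible because the group means carry no clone names, so that the library values read from them cannot be matched to clones. Beyond the filter, 216 genes and 10 repeat families could not be read and were not tested, and at the few reads per library of the Xlr and Y-linked genes in DMSO_15d the size of the difference is loosely bounded.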
